A study of Homo sapiens with 4 samples.

Results

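The nuclear genes for the mitochondrial respiratory chain and ATP synthase were followed, complex by complex, in Jurkat cells depleted of the long non-coding RNA ARIEL. Members were taken from the deposited expression table by gene name: NDUFA, NDUFB, NDUFC, NDUFS and NDUFV genes and NDUFAB1 (complex I), SDHA to SDHD (complex II), UQCR genes and CYC1 (complex III), COX4 to COX8 genes (complex IV), ATP5 genes (complex V) and CYCS (cytochrome c). Assembly factors, 2 pseudogenes (COX6A1P2 and ATP5EP2) and 2 read-through loci (NDUFC2-KCTD14 and ATP5J2-PTCD1) were left out. This gave 88 of the 22361 genes or loci in the table: 37 in complex I, 4 in complex II, 9 in complex III, 19 in complex IV, 18 in complex V and CYCS. NDUFA4 and NDUFA4L2 were placed in complex IV, where NDUFA4 is now known to belong. ATP5S and ATP5SL were counted in complex V by name only.

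Complexes I and II pass electrons from NADH and succinate to ubiquinone, complex III passes them to cytochrome c, and complex IV passes them from cytochrome c to oxygen. Complexes I, III and IV pump protons out of the mitochondrial matrix as they do so, and complex V, the ATP synthase, lets the protons back in to make ATP. Most subunits are encoded in the nucleus and imported, while complexes I, III, IV and V also need subunits encoded in mitochondrial DNA; complex II is all nuclear. Proliferating T-cell leukaemia cells use the chain both for ATP and to regenerate the electron acceptors that nucleotide and aspartate synthesis need.

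RNA was sequenced from 2 libraries of ARIEL knockdown cells, which carried a lentiviral shRNA against ARIEL, and 2 libraries of control cells, which carried an shRNA against GFP. Jurkat is a human line derived from a T-cell acute lymphoblastic leukaemia; all libraries came from this line, and infected cells were kept in puromycin (0.7 µg/ml) for 36 h or more and harvested at 72 h. Since each arm is a different shRNA, loss of ARIEL and any other action of the shRNA cannot be told apart. Whether replicates came from separate cultures is not in the labels; the p-values here reflect nothing but the spread between these 4 libraries.

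Values are regularised log2 (rlog) levels, in which noisy values are drawn towards the mean of the gene, so that rlog differences understate the change. A difference is ARIEL knockdown minus control, with its standard error (SE) from limma and n = 2 libraries per group throughout, and a gene was called when its limma p-value, adjusted over the 14601 tested genes by Benjamini-Hochberg, was below 0.05. Read totals are unknown. The table has no row named ARIEL; XLOC_005968, the locus linked to ARIEL by background knowledge and not by the table, had rlog 10.58 and 10.55 in the knockdown libraries, against 12.02 and 11.91 in the control libraries (difference -1.40 ± 0.04; limma, adjusted p = 1.22e-249). All 10 T-lineage markers checked were expressed. Their summed linear levels (2 to the power of rlog) were 256795 and 260871 in knockdown and 266960 and 270764 in control libraries. Of the 10, 2 rose and 4 fell, while 22.1% of all tested genes were called higher and 22.4% lower. Of 6 B-lineage markers 2 were tested, CD79A rose by 0.29 and MS4A1 was listed at 0, with sums of 3168 and 3193 in knockdown and 2638 and 2747 in control libraries. Of 7 myeloid markers 2 were tested and CSF1R and S100A8 were listed at 0 (sums 44.2 and 44.5 in knockdown, 46.4 and 45.2 in control), and of 5 erythroid markers none passed the filter on low values, with HBA1 and HBA2 among those listed at 0. The part of these marker shifts in the results below was not tested, and in bulk RNA a change in the mix of cells and a change in RNA per cell cannot be told apart.

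Of the 88 members, 82 passed the filter on low values, a mean linear level of at least 10. Among these 82, 42 were called higher and 4 lower in ARIEL knockdown cells, and 36 were not called. Over all 14601 tested genes 44.4% were called in either direction, 22.1% higher and 22.4% lower, whereas 51.2% of the tested members were called higher and 4.88% lower. The median member difference was 0.083, against 0.00 over all tested genes. The rises were small: differences ran from -0.18 (NDUFA4L2) to 0.62 (ATP5G1), 65 of 82 lay between 0 and 0.3, and ATP5G1 was the only member past 0.3 in size. Among called genes the median size was 0.14 for members, against 0.15 for all genes.

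The separation of the groups was larger than the spread within them for most members. Both knockdown libraries lay above both control libraries in 61 members (35.6% of all tested genes did so) and below both in 10 (35.1% of all tested genes), and the groups overlapped in 11. The median SD between replicates was 0.02 in each group. The calls depend on limma sharing 1 spread among genes of a level. With each gene's own variance no member and no other gene was called (limma, adjusted p at least 0.0748 for members), while 44 members, 43 of them higher, and 31.2% of all genes had an unadjusted p under 0.05. The authors' deposited table, taken at the same threshold, has 43 members higher and 4 lower, against 20.1% and 19.3% of its 14551 genes with an adjusted p; all 46 members called here had the same call and sign there.

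**Figure D1:**
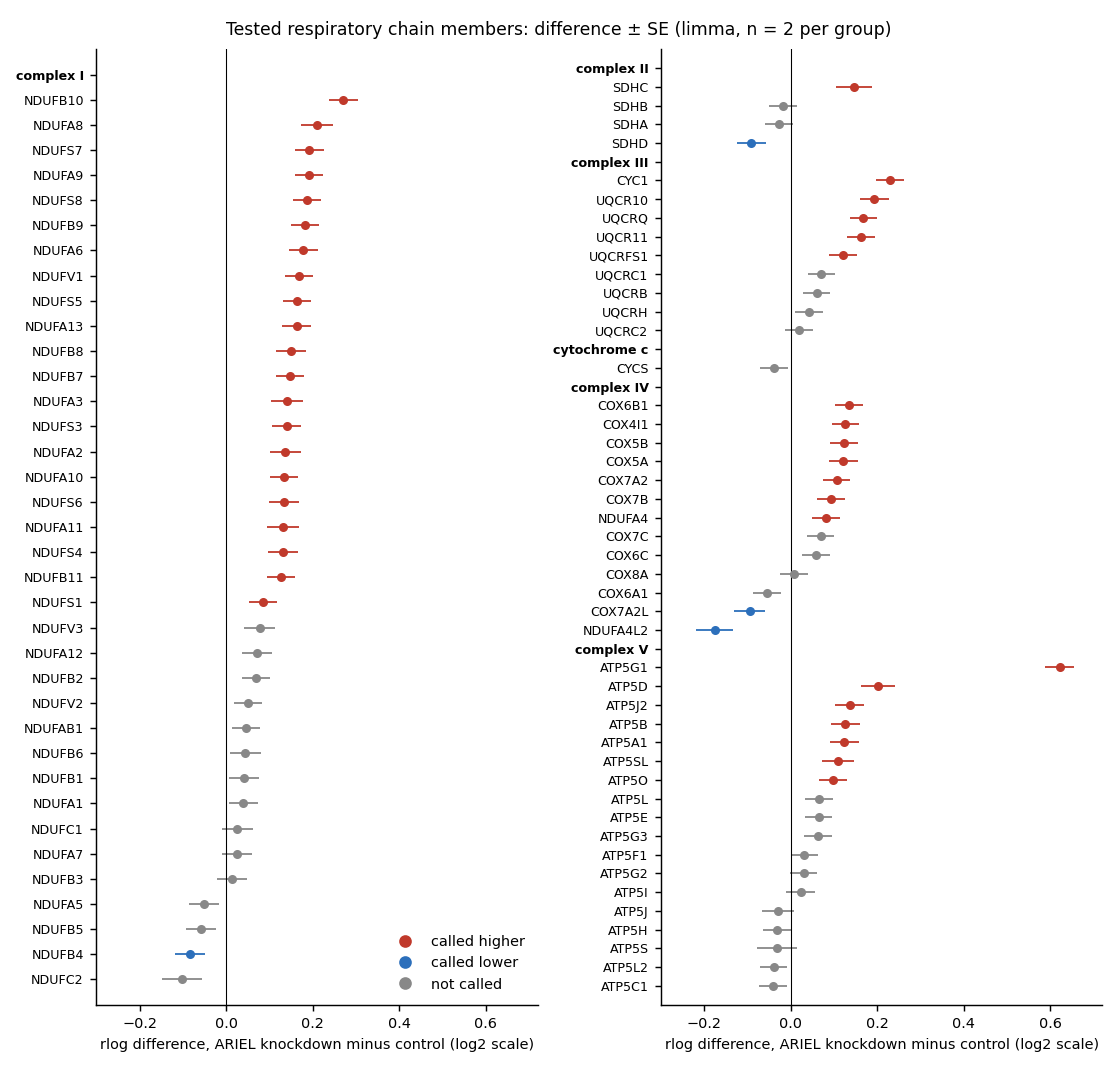
Difference in rlog (log2 scale, x axis), ARIEL knockdown minus control, for 81 of the 82 tested members, grouped by complex; points are differences, bars are ± 1 SE from limma with n = 2 libraries per group, red marks genes called higher, blue genes called lower and grey genes not called. Nearly all points of complexes I and III lie right of 0, complexes I, II and IV hold blue points, and ATP5G1 stands alone at 0.62.

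Complex I, the NADH dehydrogenase that is the largest entry point of electrons, had 22 of its 37 tested members higher, 1 lower and 14 not called, with a median difference of 0.13. After removal of each library's trend with GC content and length the complex I median was 0.078, close to those of complexes IV (0.078) and V (0.070). Of the 37, 33 had a positive difference, and in 30 both knockdown libraries lay above both control libraries. Rises were found among the nuclear members of each module, while subunits encoded in mitochondrial DNA were not analysed. They comprised 5 of 8 members of the N module, which oxidises NADH (median 0.11), and 6 of 8 of the Q module, which hands electrons to ubiquinone (median 0.16). The others were 11 of 21 nuclear accessory subunits of the proton-pumping membrane arm (median 0.13). The largest was NDUFB10, a membrane-arm accessory subunit, with rlog 13.51 and 13.53 in knockdown libraries and 13.25 and 13.25 in control libraries. Each group's replicates lay within 0.02 of each other and the groups were far apart in comparison, for a difference of 0.27 ± 0.03 (limma, adjusted p = 3.91e-15) and a 1.40-fold higher level in the authors' deposited table. NDUFA8, another membrane-arm accessory subunit, had rlog 12.01 and 12.05 in knockdown libraries and 11.80 and 11.84 in control libraries, a difference of 0.21 ± 0.04 (limma, adjusted p = 1.66e-07).

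The electron-transfer subunits of complex I described here, and the accessory subunit NDUFA9, had positive differences of unequal size. NDUFS7, which holds the last iron-sulfur cluster before ubiquinone, had rlog 13.14 and 13.15 in knockdown libraries and 12.94 and 12.96 in control libraries (0.19 ± 0.03; limma, adjusted p = 9.63e-08). NDUFS8, which holds the neighbouring iron-sulfur clusters, had 13.41 and 13.47 in knockdown libraries and 13.26 and 13.25 in control libraries (0.19 ± 0.03; limma, adjusted p = 1.33e-07). NDUFA9, an accessory subunit beside the quinone site, had 14.11 and 14.15 in knockdown libraries and 13.94 in each control library (0.19 ± 0.03; limma, adjusted p = 2.2e-08). In each of these genes the lower knockdown library was clearly above the higher control library. NDUFV1, which binds NADH and flavin, had 14.88 and 14.94 in knockdown libraries and 14.73 and 14.75 in control libraries (0.17 ± 0.03; limma, adjusted p = 9.73e-07). NDUFS1, the large iron-sulfur subunit of the N module, was near the threshold, with 14.83 and 14.86 in knockdown libraries and 14.78 and 14.75 in control libraries (0.08 ± 0.03; limma, adjusted p = 0.0201). Its call was lost without knockdown replicate 2 (0.07, adjusted p = 0.227), without control replicate 2 (0.07, adjusted p = 0.134) and with no trend of spread on level (adjusted p = 0.0549). NDUFV2, the partner of NDUFV1, had 14.07 and 14.08 in knockdown libraries and 14.06 and 13.99 in control libraries and was not called (0.05 ± 0.03; limma, adjusted p = 0.195).

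The other complex I rises were NDUFB9 and NDUFA6 (0.18 each), NDUFS5 and NDUFA13 (0.16 each), NDUFB8 and NDUFB7 (0.15 each), NDUFA3, NDUFS3 and NDUFA2 (0.14 each), and NDUFA10, NDUFS6, NDUFA11, NDUFS4 and NDUFB11 (0.13 each). NDUFS3 lies in the Q module, and NDUFS4 and NDUFS6 lie in the N module. Without knockdown replicate 2 the calls of NDUFA10 (0.10, adjusted p = 0.0613), NDUFS6 (0.10, adjusted p = 0.0798) and NDUFB11 (0.11, adjusted p = 0.055) were lost, and without knockdown replicate 1 that of NDUFA11 (0.11, adjusted p = 0.0564). The members not called ranged from 0.08 (NDUFV3) to -0.10 (NDUFC2). NDUFC2, a membrane-arm subunit whose exons overlap a read-through locus, had rlog 10.10 and 9.97 in knockdown libraries and 10.16 and 10.12 in control libraries (-0.10 ± 0.05; limma, adjusted p = 0.0608). It passed the test without knockdown replicate 1 (-0.17, adjusted p = 0.019) and without control replicate 2 (-0.13, adjusted p = 0.0411), and, at the same difference, with a mean level of at least 50 required, no trend of spread on level or a robust spread (adjusted p from 0.0439 to 0.0478). The lower member called was NDUFB4, a membrane-arm accessory subunit, with 12.70 and 12.72 in knockdown libraries and 12.82 and 12.76 in control libraries (-0.08 ± 0.03; limma, adjusted p = 0.0343). That call was lost without control replicate 1 (-0.06, adjusted p = 0.268), knockdown replicate 1 (-0.08, adjusted p = 0.189) or knockdown replicate 2 (-0.09, adjusted p = 0.125) and under 4 other settings (no filter, no trend, quantile normalisation and median centring; adjusted p from 0.0519 to 0.063), and 12 pseudogenes bear its name. Without control replicate 2 complex I had 4 lower calls, NDUFB4 and NDUFC2 among them, with NDUFA5 (-0.11, adjusted p = 0.0219) and NDUFB5 (-0.10, adjusted p = 0.0258).

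Complex II, the succinate dehydrogenase shared with the tricarboxylic acid (TCA) cycle, showed no common direction among its 4 genes: its median difference was -0.023, with 1 member higher, 1 lower and 2 not called. The catalytic pair lay within the replicate spread. SDHA, the flavoprotein, had rlog 13.95 and 14.01 in knockdown libraries and 13.98 and 14.04 in control libraries (-0.03 ± 0.03; limma, adjusted p = 0.499). SDHB, the iron-sulfur subunit, had 13.75 and 13.76 in knockdown libraries and 13.81 and 13.74 in control libraries (-0.02 ± 0.03; limma, adjusted p = 0.671). The groups of these 2 genes overlapped. The membrane anchors, which bind ubiquinone together, went opposite ways. SDHC had 11.27 and 11.21 in knockdown libraries and 11.08 and 11.11 in control libraries (0.15 ± 0.04; limma, adjusted p = 0.00148), with the groups apart. SDHD had 12.89 in each knockdown library and 13.01 and 12.96 in control libraries (-0.09 ± 0.03; limma, adjusted p = 0.0183), also with the groups apart. SDHC lost its call without knockdown replicate 1 (0.12, adjusted p = 0.08), and SDHD lost its call without knockdown replicate 1 (-0.09, adjusted p = 0.11), knockdown replicate 2 (-0.09, adjusted p = 0.112) or control replicate 1 (-0.06, adjusted p = 0.193). The difference between SDHC and SDHD was not itself tested.

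Complex III, the cytochrome bc1 complex, had a positive difference in all 9 tested members (median 0.12), with 5 called higher and none lower; in 8 of 9 both knockdown libraries lay above both control libraries. Both members that carry electrons rose. CYC1, the cytochrome c1 haem protein, had rlog 14.30 and 14.35 in knockdown libraries and 14.09 and 14.11 in control libraries (0.23 ± 0.03; limma, adjusted p = 1.02e-11; 1.33-fold in the authors' deposited table). UQCRFS1, the Rieske iron-sulfur protein, had 13.82 and 13.87 in knockdown libraries and 13.74 and 13.71 in control libraries (0.12 ± 0.03; limma, adjusted p = 0.00079). Without knockdown replicate 2 the UQCRFS1 difference was 0.10 and was not called (adjusted p = 0.075). Among the 5 small subunits around the catalytic core, 3 rose. UQCR10 had 13.31 and 13.30 in knockdown libraries and 13.12 and 13.11 in control libraries (0.19 ± 0.03; limma, adjusted p = 6.14e-08). UQCRQ had 13.88 in each knockdown library and 13.72 and 13.71 in control libraries (0.17 ± 0.03; limma, adjusted p = 1.48e-06). UQCR11 had 13.70 and 13.76 in knockdown libraries and 13.55 and 13.58 in control libraries (0.16 ± 0.03; limma, adjusted p = 4.12e-06). The replicates of each group were close for UQCR10 and UQCRQ, while the knockdown replicates of UQCR11 lay further apart (SD 0.04). In all 3 genes the groups did not overlap. The large core proteins were not called: UQCRC1 differed by 0.07 (limma, adjusted p = 0.0573; the authors' deposited table calls it, adjusted p = 0.0493) and UQCRC2 by 0.02 (limma, adjusted p = 0.681). UQCRB differed by 0.06 (limma, adjusted p = 0.12). UQCRH, the hinge protein, had 14.64 and 14.65 in knockdown libraries and 14.60 and 14.61 in control libraries (0.04 ± 0.03; limma, adjusted p = 0.29). Its retrogene UQCRHL was not among the members found by name and was not analysed here.

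CYCS, the soluble cytochrome c that links complexes III and IV and that also takes part in apoptosis, had rlog 13.97 in each knockdown library and 14.05 and 13.96 in control libraries (-0.04 ± 0.03; limma, adjusted p = 0.322). The groups overlapped, and 40 pseudogenes bear its name, so that its level is uncertain.

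**Figure D2:**
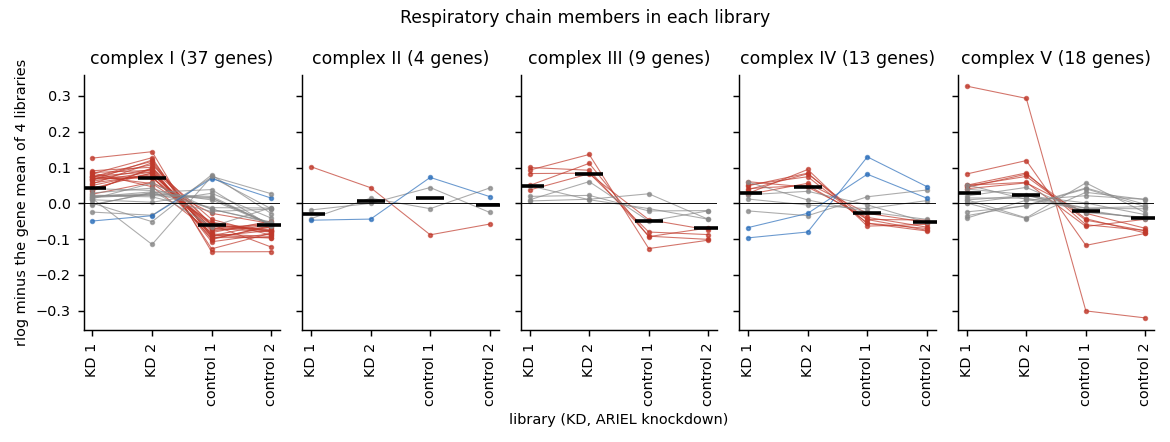
Each line is 1 member and each point its rlog in 1 library minus that gene's mean over the 4 libraries (y axis, log2 scale), with ARIEL knockdown (KD) replicates 1 and 2 left of control replicates 1 and 2; thick bars are the median of the complex in that library and colours mark calls (red higher, blue lower, grey not called). The medians of complexes I, III, IV and V are above 0 in both knockdown libraries and below 0 in both control libraries, and those of complex II are not.

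Complex IV, cytochrome c oxidase, had 7 of 13 tested members higher, 2 lower and 4 not called, with a median difference of 0.081. Its 11 ubiquitous nuclear subunits held all 7 rises. COX6B1, which lies on the cytochrome c side, had rlog 13.90 and 13.93 in knockdown libraries and 13.79 and 13.77 in control libraries (0.13 ± 0.03; limma, adjusted p = 0.000159). COX4I1, the largest nuclear subunit and the common isoform of COX4, had 14.80 and 14.82 in knockdown libraries and 14.69 and 14.68 in control libraries (0.13 ± 0.03; limma, adjusted p = 0.000329). These 2 rises kept their call when any single library was left out. COX5B, COX5A and COX7A2 followed at 0.12, 0.12 and 0.11, then COX7B at 0.09 and NDUFA4 at 0.08. COX5B had 13.88 and 13.95 in knockdown libraries and 13.79 in each control library (limma, adjusted p = 0.000583), COX5A 13.07 and 13.11 in knockdown libraries and 12.98 and 12.96 in control libraries (limma, adjusted p = 0.00123), and COX7A2 14.42 and 14.40 in knockdown libraries and 14.32 and 14.29 in control libraries (limma, adjusted p = 0.00302). The 7 rises were 3 without knockdown replicate 2, where COX5B (0.09, adjusted p = 0.108), COX5A (0.10, adjusted p = 0.0867), COX7B (0.09, adjusted p = 0.123) and NDUFA4 (0.07, adjusted p = 0.258) were not called. They were 4 without knockdown replicate 1, where COX7A2 (0.10, adjusted p = 0.055), COX7B (0.10, adjusted p = 0.0712) and NDUFA4 (0.10, adjusted p = 0.0627) were not called; NDUFA4 also lost its call without control replicate 2 (0.07, adjusted p = 0.136) and with no trend of spread on level (adjusted p = 0.0645). COX7C (0.07), COX6C (0.06), COX8A (0.01) and COX6A1 (-0.06) were not called (limma, adjusted p from 0.065 to 0.877).

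The genes that replace a common complex IV subunit in particular tissues were, with 1 exception, listed at 0 or too low to test. COX4I2, the hypoxia-responsive isoform of lung, the muscle isoforms COX6A2 and COX7A1, and the testis isoform COX7B2 were listed at 0 in all 4 libraries. The testis isoforms COX6B2 (1.48 and 1.50 in the knockdown libraries, 1.48 and 1.50 in the control libraries) and COX8C (-1.72 in every library) were below the filter. The exception was NDUFA4L2, the hypoxia-induced relative of NDUFA4, with rlog 7.13 and 7.15 in knockdown libraries and 7.36 and 7.28 in control libraries. Both knockdown libraries were below both control libraries, and the difference of -0.18 ± 0.04 (limma, adjusted p = 0.000194) was the lowest of any tested member and passed the test without each library in turn. The authors' deposited table gives a 1.49-fold lower level. Its exons overlap SHMT2 on the other strand, and how the authors' counting used strand is not given in the sources used here. Its paralogue NDUFA4 had 14.07 and 14.10 in knockdown libraries and 14.01 and 13.99 in control libraries (0.08 ± 0.03; limma, adjusted p = 0.0278). COX7A2L, a COX7A relative that helps complexes III and IV join in supercomplexes, had 12.45 and 12.49 in knockdown libraries and 12.60 and 12.54 in control libraries (-0.10 ± 0.03; limma, adjusted p = 0.0168). The groups did not overlap, but the COX7A2L call was lost without control replicate 1 (-0.06, adjusted p = 0.226) or knockdown replicate 1 (-0.08, adjusted p = 0.203) and after quantile normalisation (-0.09, adjusted p = 0.0573).

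Complex V had 7 of 18 tested members higher, none lower and 11 not called, with a median difference of 0.064. ATP5G1 was its outlying member. ATP5G1, ATP5G2 and ATP5G3 (now ATP5MC1, ATP5MC2 and ATP5MC3) encode the same mature protein, subunit c, which forms the rotating ring in the membrane, behind different targeting peptides. ATP5G1 (ENSG00000159199) had rlog 13.09 and 13.06 in knockdown libraries and 12.47 and 12.45 in control libraries. Replicates differed by no more than 0.04, and the difference between groups was 0.62 ± 0.03 (limma, adjusted p = 1.8e-70). This was the 9th largest rise among all 14601 tested genes. The authors' deposited table gives ATP5G1 a 2.20-fold higher level (adjusted p = 1.95e-75). ATP5G3 had 14.29 and 14.25 in knockdown libraries and 14.22 and 14.19 in control libraries (0.06 ± 0.03; limma, adjusted p = 0.0942), and ATP5G2 had 14.43 in each knockdown library and 14.40 in each control library (0.03 ± 0.03; limma, adjusted p = 0.475). The knockdown libraries were above the control libraries in all 3 genes, though only ATP5G1 was called. In GENCODE 29, 7 pseudogenes bear the name of ATP5G1 and 3 that of ATP5G2, and how reads shared with them were counted is not stated.

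The bases before the start sites of ATP5G1 and ATP5G2 are shown because these genes make the same protein and ATP5G1 rose while ATP5G2 was not called; NDUFS7, a called rise, and SDHD, a called fall, are shown beside them. Each line gives the 250 bases before the RefSeq transcription start (GRCh38.p14), 5′ to 3′ on the gene's strand: chr17:48892537-48892786 on the plus strand for ATP5G1, chr12:53676084-53676333 on the minus strand for ATP5G2, chr19:1383657-1383906 on the plus strand for NDUFS7 and chr11:112086623-112086872 on the plus strand for SDHD. Capitals mark exact matches, on either strand, to CGCANGCG (nuclear respiratory factor NRF1), CCGGAAGT (ETS factors such as GABPA) or TGACGTCA (the cyclic AMP response element).
ATP5G1: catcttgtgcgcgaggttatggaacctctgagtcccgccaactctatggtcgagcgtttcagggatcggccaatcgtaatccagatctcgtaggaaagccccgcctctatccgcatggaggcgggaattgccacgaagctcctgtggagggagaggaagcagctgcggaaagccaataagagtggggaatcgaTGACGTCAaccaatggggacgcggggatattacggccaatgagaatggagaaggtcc
ATP5G2: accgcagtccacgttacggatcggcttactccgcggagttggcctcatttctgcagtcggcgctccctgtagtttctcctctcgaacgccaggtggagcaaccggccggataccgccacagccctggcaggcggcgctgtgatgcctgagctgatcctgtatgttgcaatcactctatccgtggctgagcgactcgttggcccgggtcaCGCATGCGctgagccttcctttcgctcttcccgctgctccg
NDUFS7: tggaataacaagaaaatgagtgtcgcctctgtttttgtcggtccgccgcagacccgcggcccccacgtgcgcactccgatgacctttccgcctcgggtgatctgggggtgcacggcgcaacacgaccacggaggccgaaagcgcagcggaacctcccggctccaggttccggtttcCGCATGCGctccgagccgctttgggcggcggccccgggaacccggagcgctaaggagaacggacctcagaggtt
SDHD: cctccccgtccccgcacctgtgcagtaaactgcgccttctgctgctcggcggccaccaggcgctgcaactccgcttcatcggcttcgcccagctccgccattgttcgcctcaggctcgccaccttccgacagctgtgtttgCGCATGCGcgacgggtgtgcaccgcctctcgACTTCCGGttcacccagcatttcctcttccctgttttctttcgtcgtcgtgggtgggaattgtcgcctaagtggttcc

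Of the 88 members, 70 had a 300-base RefSeq window (250 bases before to 50 after the start) and 66 of these were tested. The NRF1 letters were found in 24 of the 70 windows (34.3%), against 10.6% of all 27305 windows, and the ETS letters in 9 (12.9%), against 4.44%. AAGATGGC, the YY1 motif, was found in 11 (15.7%), against 3.03%, and GGGCGG, the SP1 motif, in 39 (55.7%), against 44.6%. Members that rose were found with and without these letters. Of the 23 tested members with the NRF1 letters, 12 were higher and 2 lower (median 0.098), and of the 43 without them, 21 were higher and 2 lower (median 0.077). ATP5G1 carried none of these 4 motifs in its window. TGACGTCA, searched for after the ATP5G1 window had been read, was found in 5 member windows (7.14%), against 1.98% of all windows; of these 5 members ATP5G1 and NDUFA10 were higher and NDUFB2, ATP5I and SDHB were not called.

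**Figure D3:**
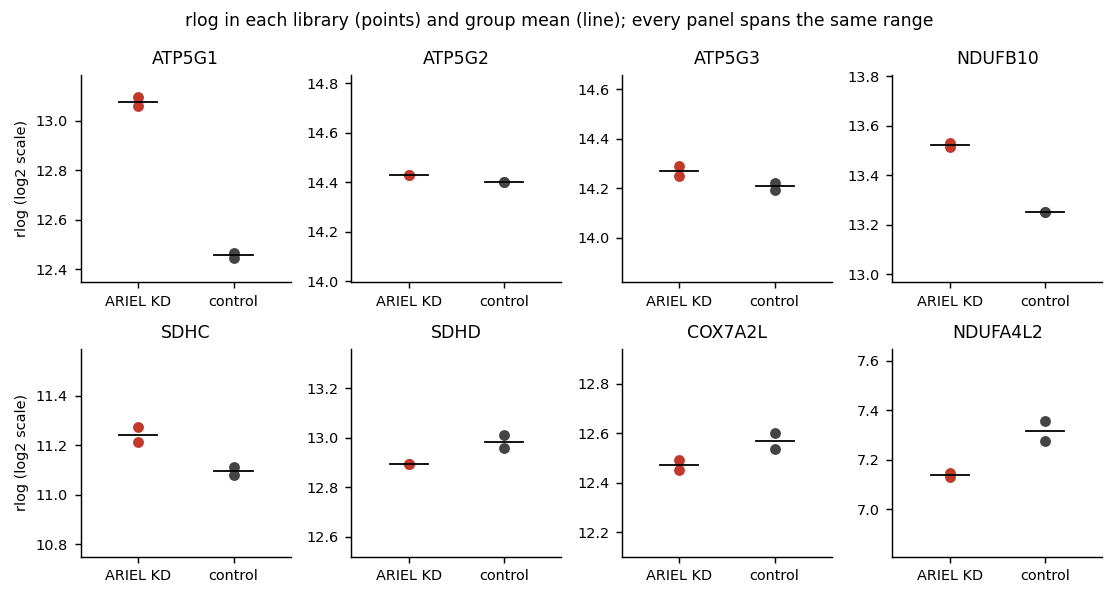
The rlog level (y axis, log2 scale) of 8 members in each library (points) with the group mean (line), ARIEL knockdown left of control, n = 2 libraries per group; every panel spans the same range of rlog. ATP5G1 shows the widest gap between groups, its c-ring paralogues ATP5G2 and ATP5G3 show almost none, and SDHD, COX7A2L and NDUFA4L2 are lower in knockdown than in control libraries.

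Outside the c ring, 3 of 5 members of the F1 head and central stalk, where ATP is made, were called higher (median 0.12), against 2 of 8 of the peripheral stalk and membrane part (median 0.027), a contrast that was not tested. ATP5D, the delta subunit of the central stalk, had rlog 11.77 and 11.81 in knockdown libraries and 11.57 and 11.60 in control libraries (0.20 ± 0.04; limma, adjusted p = 1.27e-06). ATP5B, the catalytic beta subunit, had 16.33 and 16.36 in knockdown libraries and 16.24 and 16.20 in control libraries (0.13 ± 0.03; limma, adjusted p = 0.000607). ATP5A1, the alpha subunit beside it, had 16.91 and 16.94 in knockdown libraries and 16.82 and 16.79 in control libraries (0.12 ± 0.03; limma, adjusted p = 0.00125). In all 3 the groups were apart. The gamma subunit ATP5C1, which turns inside the head, had 14.39 and 14.35 in knockdown libraries and 14.42 and 14.40 in control libraries and was not called (-0.04 ± 0.03; limma, adjusted p = 0.291). ATP5J2, the membrane subunit f, had 13.46 and 13.49 in knockdown libraries and 13.35 and 13.33 in control libraries (0.14 ± 0.03; limma, adjusted p = 0.000166). ATP5O, the stalk subunit that holds the head still, had 13.87 and 13.88 in knockdown libraries and 13.80 and 13.76 in control libraries (0.10 ± 0.03; limma, adjusted p = 0.00724), a call lost without knockdown replicate 2 (0.09, adjusted p = 0.105) or control replicate 2 (0.08, adjusted p = 0.0905). ATP5SL, placed here by name only, differed by 0.11 (limma, adjusted p = 0.00908) and lost its call without control replicate 1 (adjusted p = 0.0501), knockdown replicate 1 (adjusted p = 0.0592) or knockdown replicate 2 (adjusted p = 0.0959). Without ATP5S and ATP5SL, complex V had 6 of 16 higher and none lower. The remaining stalk and membrane members ranged from 0.06 (ATP5L) to -0.04 (ATP5L2).

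**Figure D4:**
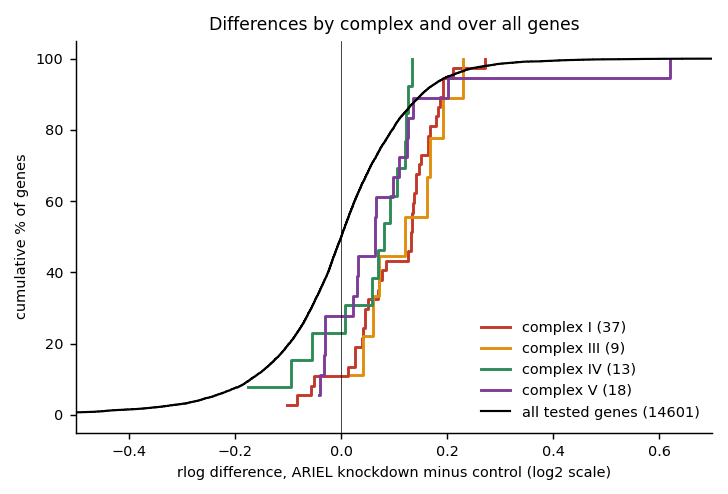
Cumulative percentage of genes (y axis) at or below each rlog difference, ARIEL knockdown minus control (x axis, log2 scale), for complexes I, III, IV and V and for all 14601 tested genes (black); complex II, with 4 genes, and CYCS are not drawn. The curves of complexes I and III lie furthest right, with medians of 0.13 and 0.12, against 0.00 for all genes, though with GC and length trends removed the complex I median was 0.078; the tail of complex V is ATP5G1.

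Across the 82 tested members, Spearman's rho between transcript GC content (35.0 to 65.0%) and the difference was 0.47, but between GC content and the gap between replicates 2 and 1 it was also 0.34 within knockdown and 0.55 within control libraries; genes share libraries, so this is a description. After the trend of each library with GC content and length was removed, 54 members were higher and 6 lower, against 28.8% and 24.1% of the 12719 genes with both properties, with a median of 0.077. By complex, 27 of 37 members were then higher in complex I (median 0.078), 6 of 9 in complex III (0.13), 9 of 13 in complex IV (0.078) and 11 of 18 in complex V (0.070), and 1 of 4 in complex II (-0.034). NDUFB7 (0.05, adjusted p = 0.0755) and NDUFA11 (0.05, adjusted p = 0.0839) lost their calls. Several members gained a higher call, the largest being UQCRB (0.14), ATP5E and ATP5G3 (0.13 each). ATP5J, not called before, was called lower (-0.08, adjusted p = 0.032). Among the tested members, 8 changed sign. Of these, 2 were called after the removal: NDUFA5, at -0.05 before, was 0.06 and called higher, and COX8A, at 0.01 before, was -0.06 and called lower; NDUFA1, NDUFA7, NDUFB5, ATP5I, ATP5S and CYCS were called neither before nor after. ATP5G1 stayed at 0.62. Among the 37 tested members that share no exon bases with another GENCODE 29 gene, 20 were higher and 2 lower (median 0.092).

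The 3′ untranslated regions (UTRs) of the members were searched for GATGACA and AGATGAC, 7-base words picked in earlier work on these libraries because their carriers were lower, so they are no independent evidence. Of 12459 tested genes with a 3′ UTR, 14.2% carried at least 1 of the words, with a median difference of -0.061. Among the 82 tested members 8 carried one (NDUFA9, NDUFA10, NDUFS1, SDHA, SDHC, UQCRB, UQCRFS1 and ATP5S), of which 5 were higher and none lower (median 0.10); the 74 others had 37 higher and 4 lower (median 0.079). The 4 lower members, NDUFB4, SDHD, COX7A2L and NDUFA4L2, carried neither GATGACA nor AGATGAC. Another pair of words, TGTTGTC and GTTGTCA, was also searched for, as words for rises. That pair too was chosen with earlier results of these data known, so it is no independent evidence. Of the 12459 tested genes with a 3′ UTR, 16.1% carried at least 1 of that pair, with a median difference of -0.0. Of the 6 tested members that carried at least 1 of that pair, 2 were higher and 1 lower (median 0.062). The 76 others had 40 higher and 3 lower (median 0.088). The GATGACA sites of 2 risen carriers are shown with the word in capitals, from the longest 3′ UTR of the principal GENCODE 29 transcript, 5′ to 3′.
NDUFA9: ctgttattttgGATGACAcccctcctggc
UQCRFS1: gtttctgtagtGATGACActttgaatgtt

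On the rlog scale, genes that serve the chain held larger falls than the chain itself. Of 46 tested assembly factors, which insert cofactors and join subunits, 21 (45.7%) were higher and 4 lower (median 0.083). Over all tested genes 22.1% were higher and 22.4% lower. In rlog, each of the 4 falls among assembly factors was larger than any among the tested subunits. In the authors' deposited log2 fold changes only COX16 (-0.864) among these 4 fell further than the chain member NDUFA4L2 (-0.573). There LYRM7 (-0.402), COX15 (-0.389) and NDUFAF6 (-0.386) fell less than NDUFA4L2. COX16, a factor for the copper site of complex IV, had rlog 11.67 and 11.66 in knockdown libraries and 12.15 and 12.11 in control libraries (-0.46 ± 0.04; limma, adjusted p = 3.67e-33). LYRM7, which delivers the Rieske protein to complex III, fell by 0.22, COX15, needed for haem A, by 0.21 and the complex I factor NDUFAF6 by 0.20. The largest rises were SCO2 (0.29), which carries copper to complex IV, SURF1 (0.25), which acts in complex IV assembly, and TIMMDC1 (0.25), a complex I factor. The words GATGACA and AGATGAC were picked because their carriers were lower in these libraries, so falls of carriers are no independent evidence. GATGACA or AGATGAC lay in the 3′ UTRs of 6 tested assembly factors. These were COX16, LYRM7 and COX15, which fell, NDUFAF5, which rose by 0.11, and TTC19 (-0.05) and COX18 (-0.02), which were not called. Among these 6, COX16, LYRM7 and NDUFAF5 also carried TGTTGTC or GTTGTCA. Of the 13 TCA cycle enzymes, which supply the chain with NADH and succinate, 7 (53.8%) were higher and 3 lower (median 0.10). The share lower was near the 22.4% over all tested genes. SUCLG2 (-0.17) and IDH3A (-0.14) fell, while IDH3B (0.19) and IDH3G (0.23), the partners of IDH3A in isocitrate dehydrogenase, and DLD (0.21) rose. Of the enzymes named here IDH3A carries GATGACA or AGATGAC, and so does MDH2, which rose by 0.14. TGTTGTC or GTTGTCA lies in the 3′ UTRs of IDH3A and DLD.

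Of 15 tested regulators of respiratory chain genes, 3 (20%) were higher and 6 lower (median -0.024). Over all tested genes 22.1% were higher and 22.4% lower. TFAM, which packages and transcribes mitochondrial DNA, had rlog 13.48 and 13.41 in knockdown libraries and 13.87 and 13.79 in control libraries, with no overlap (-0.39 ± 0.03; limma, adjusted p = 4.09e-31). TFB1M (-0.20), SP1 (-0.17), GABPB2 (-0.14), YY1 (-0.12) and GABPA (-0.10) were also lower. With GC and length trends removed, 5 of the 15 regulators were higher and 5 lower (median -0.0051), against 28.8% and 24.1% of all genes. GABPA then differed by -0.0051 and was not called (limma, adjusted p = 0.873). Because GATGACA and AGATGAC were picked for lower carriers in these libraries, falls of carriers are no independent evidence here either. Of the 5 regulators that carry GATGACA or AGATGAC, TFAM, GABPB2 and YY1 fell, and PPARGC1B (0.06) and PPRC1 (-0.0001) were not called. Among these 5, YY1 and PPARGC1B also carry TGTTGTC or GTTGTCA. ESRRA, a nuclear receptor that activates chain genes, rose by 0.21, POLRMT, the mitochondrial RNA polymerase, by 0.19 and MYC, which drives growth and mitochondrial genes, by 0.14. NRF1 was not called (-0.02 ± 0.04; limma, adjusted p = 0.673), and the coactivator PPARGC1A was below the filter, with rlog from 3.12 to 3.17 over the 4 libraries. Of the ATP synthase proteins named outside the ATP5 series, C14orf2, a small membrane subunit, rose by 0.27 ± 0.03 (limma, adjusted p = 4.15e-15), and the inhibitor ATPIF1 (0.08) and USMG5 (0.01) were not called. The 13 subunits encoded in mitochondrial DNA were not found under their MT- names in the deposited data and so were not analysed here.

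**Figure D5:**
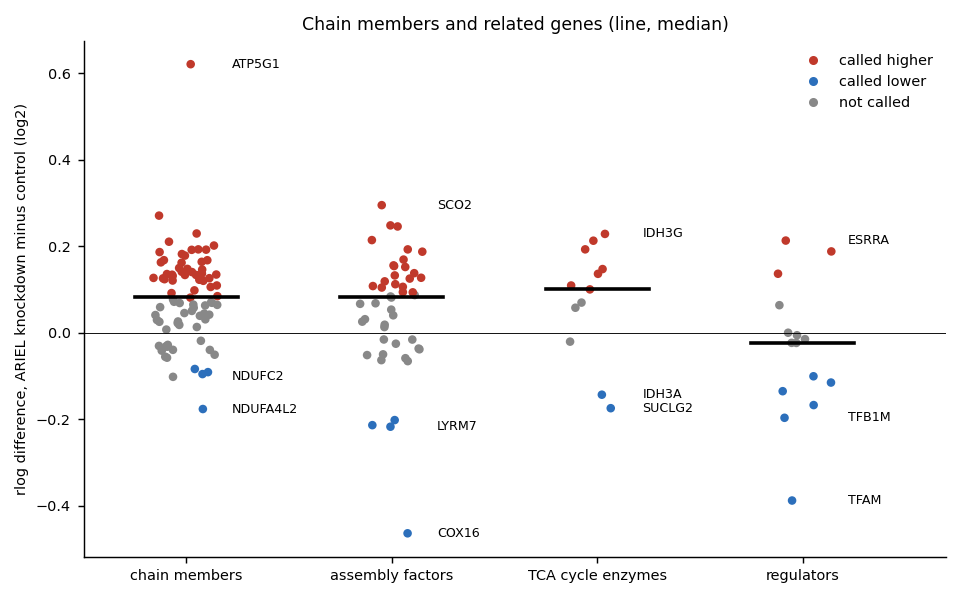
Difference in rlog (log2 scale, y axis), ARIEL knockdown minus control, of each tested gene among chain members (82), assembly factors (46), TCA cycle enzymes (12 of 13 drawn) and regulators (15); each point is 1 gene, horizontal position within a column carries no meaning, lines are medians of all tested genes of the list and colours mark calls (red higher, blue lower, grey not called). COX16 and TFAM lie below -0.3, where no chain member does, and ATP5G1 lies above all others.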

How the data were processed

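RNA-seq of 2 ARIEL knockdown and 2 control libraries (strand-specific, paired 100-base reads, per the labels' protocols) was used as deposited. STAR (2.5.2a), HTSeq (0.6.1), DESeq2 (1.12.4) and the build hg19 are listed in the submitters' processing notes, which give no roles; annotation, filters and strand setting are each not given in the sources used here. The authors deposited, per the file headers, 1 rlog value on the log2 scale for each gene and library. Beside it stand the deposited log2 fold change of the comparison, its SE, a test score, a p-value and an adjusted p. There are no counts, so depth and counting error are unknown. The labels' protocols say that spike-in RNA was added per cell; 0 rows carry it, and scaling by it was not analysed here. Of the rows, 4365 are listed at 0 in every library.

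Samples were grouped by title. The members, lists and words were chosen with earlier results of these data known. The 14601 genes whose mean rlog reached log2 of 10 were fitted with limma 3.58.1 (lmFit, eBayes with a trend on level, two-sided, R 4.3.3), with Benjamini-Hochberg adjustment at 0.05. The prior degrees of freedom were infinite, so genes of a level share 1 spread. The procedure was tested on simulated data. Some genes that the lists or the naming rule hold are not reported here. Named members are, in each complex, the 5 called members with the largest difference, every lower call, the listed paralogues, the catalytic and electron-carrying subunits and members whose call an alternative removed. GC content, length, overlaps, pseudogene names and 3′ UTRs come from GENCODE 29, promoters from RefSeq GRCh38.p14; since the build differs from hg19, coordinates are printed for sequences only. Of the tested members, 46 have a pseudogene bearing their name and 23 share exon bases with another gene on the same strand, so their levels are uncertain. Alternatives were other filters, spread models, scalings, removal of GC and length trends (splines with 5 degrees of freedom), a replicate block, each library left out, and the authors' deposited fold change. Tables and plots were made in Python 3.11.15 with pandas 2.3.3, numpy 2.4.6, scipy 1.17.1 and matplotlib 3.10.9.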

Additional observations from a re-analysis of the deposited data

How the results depend on the processing

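Precision is limited by 2 libraries per group and an unknown depth, and every call rests on a spread shared between genes. With each gene's own variance, 0 members were higher and 0 lower, as over all genes (0 and 0). Of the 46 calls, 28 (27 higher, and NDUFA4L2 lower) passed in all 12 alternatives that share the spread and use the rlog values. Leaving out each library in turn gave 2004 to 3061 higher genes among all tested, the lowest without knockdown replicate 2, where a lone library is assumed to vary like the other group. It gave 31 to 41 higher and 1 to 7 lower members, and medians of 0.0809 to 0.0963 for the members, 0.106 to 0.142 for complex I, 0.0972 to 0.143 for complex III and 0.0497 to 0.0726 for complex V. Lower members were 4 with all libraries, 1 without control replicate 1, 7 without control replicate 2 and 2 without either knockdown replicate. Quantile normalisation left 2 lower members and a complex V median of 0.0771. Removing GC and length trends gave a complex I median of 0.0784 and reversed NDUFA5 (0.0598) and COX8A (-0.0613). In the authors' deposited log2 fold changes, the medians were 0.148 for members, 0.241 for complex I, 0.216 for III, 0.146 for IV and 0.114 for V. These fold changes may be shrunk too, since COX8C, far below the filter, has -0.011 with an SE of 0.036. How they were shrunk is not given in the sources used here. The replicate numbers are shared by the groups, but nothing says they mark a pairing (correlation of the deviations 0.198 across genes). With the replicate block 52 members were higher and 6 lower, against 42 and 4. No member called with all 4 libraries changed sign in any alternative listed; the cause of these shifts was not tested.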
